A study of Mus musculus with 5 samples.

Results

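The enzymes described here make or use aspartate, asparagine, glutamine and glutamate in the liver: Asns, Asrgl1, Glul, Gls2, Got1, Got2, Gpt, Gpt2 and Glud1. They were listed by gene around Asns, which was chosen by its large log2 ratio of Fra-1hep over control on these same arrays, and their probes were found through the RefSeq accession of each probe. The 9 genes had 10 probes, of 19752 named genes and 55681 probes on the array. All 9 passed the low-signal filter, as did 13524 named genes in all. The filter asked for 3 arrays above background in 1 channel or the other. Asrgl1 met it only through Fra-1hep, where it was higher, as its control cleared the background on 2 arrays. Since Asns entered the list for its ratio, the ratios of the 9 enzymes are given as a description. Where a count of these enzymes past a threshold appears, it is no test of them.

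The study addressed how Fra-1 overexpression restricted to hepatocytes affects liver gene expression during high-fat feeding. Fra-1, encoded by Fosl1, is a subunit of the AP-1 transcription factor. Liver RNA of 4 Fra-1hep mice on the C57BL/6J background, labelled with Cy5, was hybridised on 4 Agilent 2-colour arrays against 1 Cy3-labelled pool of liver RNA from 5 C57BL/6J wild-type controls. Another array, the last of the 5, carried the opposite labelling: Cy5 for the controls' pool, Cy3 for pooled RNA of Fra-1hep livers. Mice of both genotypes were aged 26 to 28 weeks, and their food from 4 weeks of age had supplied 45% of its calories as fat. The promoter that drives the transgene, the time for which it was active and the mice in the Fra-1hep pool are not given in the sources used here. The swapped array adds no animals if its pool held the same 4 mice. Nothing in the labels says how the control mice varied, because they were measured only as a pool.

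Asparagine synthetase, the product of Asns, transfers the amide nitrogen of glutamine to aspartate and so makes asparagine and glutamate. In liver, periportal hepatocytes open glutamine with the glutaminase encoded by Gls2 and pass its nitrogen to the urea cycle, and a rim of hepatocytes at the central vein makes glutamine again with the synthetase encoded by Glul. Aminotransferases and glutamate dehydrogenase move amino groups between glutamate, aspartate, alanine and ammonia. Asns is also a textbook target of ATF4, the transcription factor of the amino acid and integrated stress responses, and is abundant in the exocrine pancreas.

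The proximal promoter of Asns is printed here because Asns carried the largest ratio of the 9 enzymes. Its capitals mark 2 elements that are known from work on this promoter as the nutrient-sensing response elements, TGATGAAAC and GTTACA. The sequence comes from RefSeq, assembly GRCm38.p6, and reads 5′ to 3′ along the gene, up to 3 bases past its transcription start.
Asns, chr6:7693207-7693459, minus strand: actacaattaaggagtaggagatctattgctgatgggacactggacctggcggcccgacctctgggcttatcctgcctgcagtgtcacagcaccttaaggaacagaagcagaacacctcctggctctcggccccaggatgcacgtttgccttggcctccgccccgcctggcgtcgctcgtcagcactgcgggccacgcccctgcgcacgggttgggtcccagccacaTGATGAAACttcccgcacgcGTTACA
TGATGAAAC lay from base -23 to -15 and GTTACA from base -3 to 3, counted from the start. Promoter windows of 250 bases before to 50 after the start were at hand for 7 of the 9 genes, not for Gls2 and Gpt. Searched on both strands, TGATGAAAC stood in 81 of 32851 windows of all genes (0.247%) and GTTACA in 8.25%. Among the 7 enzymes, both were found in the Asns window alone. The AP-1 motif TGANTCA stood in 7.81% and the CRE-like TGACGTCA in 1.79% of all windows, and in 0 of the 7. These are matches of letters in a window, and no match says nothing of the factor.

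Each ratio below is log2 of Fra-1hep over control on 1 array, after background correction and normalization within the array, so that 1 unit is a doubling. The change of a gene is the mean of the 4 mice averaged with the swapped array, which takes out a dye effect shared by the arrays, and SE is its standard error from a linear model (limma) across 21494 features. Counts of genes past the threshold mean an adjusted p under 0.05 in that model, with Benjamini-Hochberg adjustment over all features. Of the 13524 named genes tested, 4129 passed (30.5%), 1625 higher (12.0%) and 2504 lower (18.5%). Of all 21494 features, 5717 passed (26.6%). Of the 9 enzymes, 4 passed, Asns, Asrgl1 and Gls2 as higher and Glul as lower. Their median change was 0.12, against -0.021 over all named genes. Because these ratios chose the list, nothing is read from that count.

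Between 47.2% and 61.5% of spots were well above background per channel and array. The array of mouse 1 was on a slide of its own and the other 4 arrays shared a slide, so the slide and mouse 1 cannot be told apart. All 18 hepatocyte markers on a list of defining genes were detected, with a summed signal of 1428762 to 1963906 in Fra-1hep and 1075184 to 1715504 in the control pool over the 5 arrays. The 1 Fosl1 probe had ratios of -0.37, -0.23, 0.11 and 0.12 in mice 1 to 4 and -0.09 in the pool, and its Fra-1hep channel cleared the background on 0 of the 5 arrays. Whether this probe lies in the stretch of Fosl1 that the transgene carries was not tested, so it does not check the labels. Where genes of other cell types move below, fewer cells of a type and less RNA per cell cannot be told apart in whole liver.

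Asns, the enzyme that makes asparagine, had log2 ratios of 6.35, 5.24, 5.01 and 6.03 in mice 1 to 4 and of 6.07 in the Fra-1hep pool on the swapped array. All 5 were far above 0, and none overlapped with any ratio of the other 8 enzymes, which lay between -1.29 and 0.63. The mean of the mice was 5.66 ± 0.63 (SD, n = 4), and the change with the swapped array was 5.87 ± 0.24 (SE), or 58.3-fold. On single arrays the fold ran from 32.3 in mouse 3 to 81.5 in mouse 1. No other of the 13524 named genes tested had so large a rise.

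The signals of the 2 channels show where that ratio came from. On the log2 scale of channel intensity, Asns read 13.62, 12.40, 12.52 and 13.42 in mice 1 to 4 and 13.19 in the Fra-1hep pool. The control pool on the same arrays read 7.28, 7.15, 7.50, 7.39 and 7.11. Both channels of Asns cleared the background on each of the 5 arrays, so the control level is a measured one, though a low one. Over the 4 mice the Fra-1hep level varied with an SD of 0.62, and the same control pool, read 4 times, with an SD of 0.15. The spread of the Asns ratio therefore lay mostly on the Fra-1hep side. Mice 1 and 4 were above mice 2 and 3, with 1.33 between the highest and the lowest ratio.

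With so dim a control, the size of the ratio moved with the background correction. It was 6.86, or 116-fold, with the scanner software's processed signals, and 90.2-fold where no offset was added to the signals. Leaving out each mouse in turn kept the change between 5.75 and 5.97. Asns had 1 probe.

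**Figure D1:**
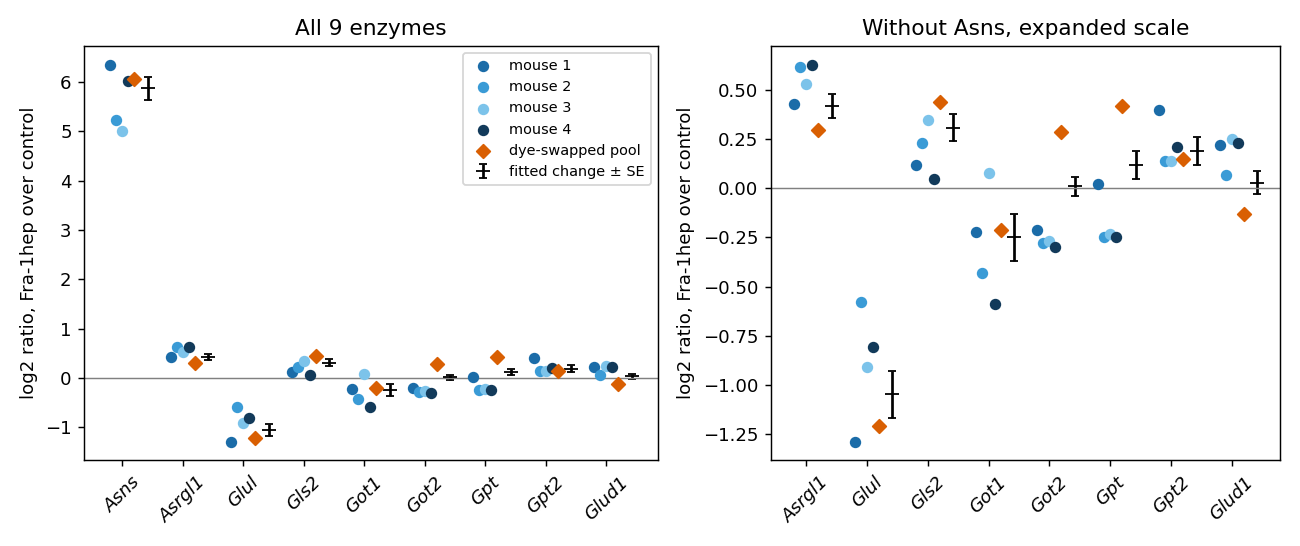
Log2 ratio of Fra-1hep over control for each of the 9 enzymes, 1 point per array (4 mice and the dye-swapped pool), with bars for the fitted change ± SE. The left panel shows all 9, with Asns between 5.01 and 6.35; the right panel leaves out Asns and expands the scale, where Glul lies below 0 on all arrays and the other 7 lie between -0.59 and 0.63.

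Asrgl1 encodes an asparaginase and isoaspartyl peptidase, which opens asparagine to aspartate and ammonia. Its ratios were 0.43, 0.62, 0.53 and 0.63 in mice 1 to 4, with 0.30 in the pool, all above 0. The change was 0.42 ± 0.06, or 1.34-fold. The control channel was well above background on 2 of 5 arrays, those of mouse 1 and the pool, so this ratio rests on a dim denominator. With processed signals it was 1.52, or 2.87-fold, and did not pass the threshold there. The other enzyme of asparagine breakdown on the array, Aspg, had ratios of -0.48, 0.06, 0.07, -0.44 and 0.19 and a change of -0.01 ± 0.12, which did not pass (adjusted p 0.975).

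Glul, glutamine synthetase, was the enzyme with the lowest ratios. They were -1.29, -0.58, -0.91 and -0.81 in mice 1 to 4, with -1.21 in the pool. All 5 lay below 0, and the pool and mouse 1 were lowest. The change was -1.05 ± 0.12, so that the control pool was 2.08-fold higher. Both channels were bright, at 13.27 to 13.77 in Fra-1hep and 14.36 to 14.66 in control on the log2 scale. A fall of this size or more was seen in 152 named genes (1.12%).

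Gls2, the liver glutaminase, had ratios of 0.12, 0.23, 0.35 and 0.05 in mice 1 to 4 and 0.44 in the pool. All were above 0, mouse 4 barely so, and the change was 0.31 ± 0.07, or 1.24-fold. It was 0.19 over the 4 mice alone, and then did not pass the threshold. Glul and Gls2, which make and open glutamine, thus had ratios of opposite sign on every array.

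Got1 and Got2 encode the cytosolic and the mitochondrial aspartate aminotransferase, which interconvert aspartate and glutamate and serve the malate-aspartate shuttle. Got1 ratios were -0.22, -0.43, 0.08 and -0.59 in mice 1 to 4, with -0.21 in the pool, below 0 in all but mouse 3, with a change of -0.25 ± 0.12. Got2 ratios were -0.21, -0.28, -0.27 and -0.30 in the mice but 0.29 in the pool. The mice lay within 0.04 (SD) of each other and the pool lay on the other side of 0, so the change was 0.01 ± 0.05 with a dye term of -0.28. The Got2 value depends on how the dyes are handled: it was -0.26 without the swapped array and -0.15 where that array was averaged in with no dye term.

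Gpt and Gpt2, the alanine aminotransferases of cytosol and mitochondria, link alanine to glutamate. Gpt ratios were 0.02, -0.25, -0.23 and -0.25 in mice 1 to 4, with mouse 1 apart from the others, and 0.42 in the pool. Its change was 0.12 ± 0.07 with a dye term of -0.30, and -0.18 over the mice alone. Gpt2 ratios were 0.40, 0.14, 0.14, 0.21 and 0.15, above 0 on all 5 arrays, with a change of 0.19 ± 0.07.

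Glud1, glutamate dehydrogenase, releases ammonia from glutamate in mitochondria. Its ratios were 0.22, 0.07, 0.25 and 0.23 in mice 1 to 4, with -0.13 in the pool, and the change was 0.03 ± 0.06. Its second probe read 0.21, 0.17, 0.08 and 0.18 in the mice and -0.23 in the pool, a change of -0.04. Both probes were above 0 in every mouse and below 0 in the pool.

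Of the 9 enzymes, 7 had ratios on 1 side of 0 in all 4 mice, and 5 kept that side on the swapped array: Asns, Asrgl1, Glul, Gls2 and Gpt2. Got2 and Glud1 turned to the other side there. In Fra-1hep all 9 were well above background on all 5 arrays, and in the control pool 8 were. Got1 varied between mice with an SD of 0.26 in its Fra-1hep level against 0.05 in the control readings. For Gpt2 the order was the other way, 0.05 against 0.15, with the control reading on the array of mouse 1 lowest at 13.63. Without the swapped array 6 enzymes passed the threshold, Asns, Asrgl1, Gpt2 and Glud1 as higher, and Glul and Got2 as lower. Nothing is read from that count either.

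**Figure D2:**
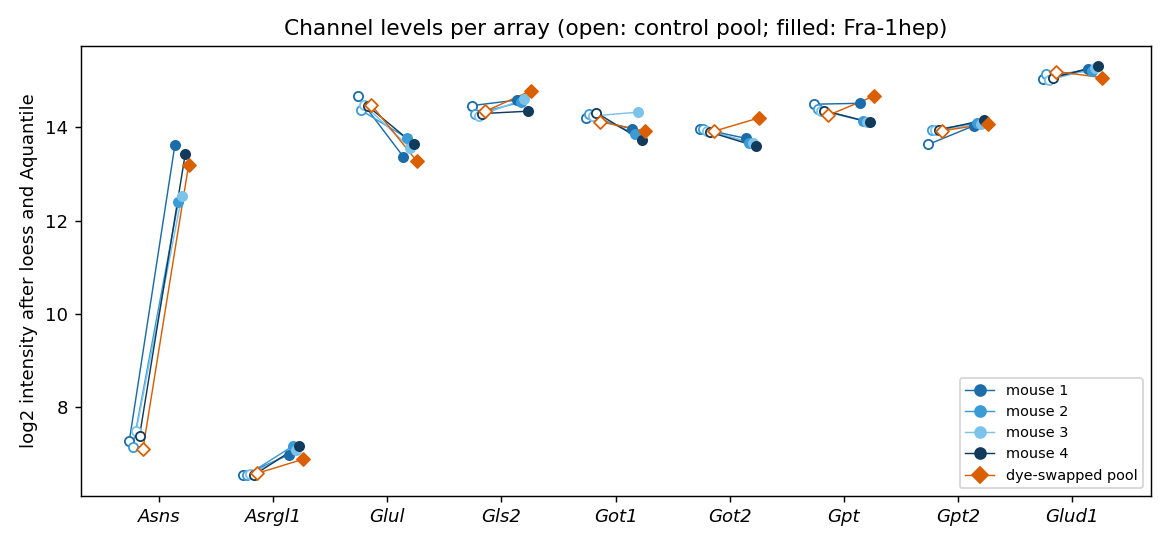
Log2 channel intensity of the 9 enzymes after normalization within and between arrays, with the control pool as open and Fra-1hep as filled points, joined per array. Asns joins control levels of 7.11 to 7.50 to Fra-1hep levels of 12.40 to 13.62, while the lines of the other enzymes are short; levels of different probes are not comparable.

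The genes next to Asns on the chromosome and the genes closest to it in the size of their ratios were looked up by a common rule. Of its 3 nearest named genes on either side on chromosome 6, Dlx5, Tac1 and Col28a1 were below the filter. Sdhaf3, a mitochondrial assembly factor, had a change of -0.07 ± 0.06 (adjusted p 0.46), C1galt1, a glycosyltransferase, 0.04 ± 0.08 (0.752) and Mios, a part of the amino acid sensing GATOR2 complex, 0.13 ± 0.06 (0.157). Mios passed with processed signals or the deposited ratios, at 0.26 (adjusted p 0.0386). By root mean square distance of the 5 log2 ratios, the genes nearest to Asns were Mep1a, the alpha subunit of the protease meprin A, at 1.70, then Tff3, a trefoil peptide of mucosae, at 1.90. Inava (1.97), Lrtm2 (1.99) and Meltf (2.19) followed. Their changes ran from 3.58 for Meltf to 4.08 for Mep1a, so the nearest gene still lay 1.70 away from Asns. No named gene rose more than Asns, so this distance picks out other large rises and does not compare the order of the mice.

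The change of Asns was next set beside genes of exocrine pancreas, where Asns is abundant. Of 25 listed pancreas markers, 24 had a probe, and 13 were not well above background in either channel on any array. Among those 13 were Prss1, Prss2, Pnlip, Cpb1 and Cela2a, which encode digestive enzymes, and Ptf1a, the transcription factor of acinar cells. The summed signal of the list was 6633 to 8334 in Fra-1hep and 4113 to 4617 in control. Cela1, an elastase, rose by 3.34 ± 0.08 (adjusted p 4.03e-06), and without it the sums were 4497 to 5918 and 3926 to 4363. Amy2a5, an amylase, rose by 0.54 ± 0.07 (adjusted p 0.00187), with a mean of 0.25 in the mice and 0.83 in the pool, and its second probe had a change of 0.22. In all, 3 of 8 tested genes of the list passed as higher and 5 did not pass. Among all named genes 12.0% passed as higher.

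The other genes that use aspartate or asparagine moved in both directions and by little. Of 27 listed, 23 were tested. Of these, 5 rose, 4 fell and 14 did not pass (39.1% called, against 30.5% of all named genes), with a median of 0.00. Adssl1, an adenylosuccinate synthetase, which joins aspartate to IMP on the way to AMP, rose most clearly, with ratios of 0.90, 0.89, 0.86, 0.81 and 0.94 and a change of 0.90 ± 0.05 (adjusted p 9.26e-05). Its isozyme Adss, with ratios of -0.06, -0.19, -0.10, -0.09 and -0.37, fell by 0.24 ± 0.05 (adjusted p 0.0191), a call that ended under 5 of the 15 alternative settings. Umps, which makes UMP at the end of the pyrimidine synthesis that aspartate enters, rose by 0.33 ± 0.06 (adjusted p 0.00757).

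Genes that supply aspartate are in the same list. Pcx, the pyruvate carboxylase that makes oxaloacetate, fell by 0.29 ± 0.07 (adjusted p 0.019); its ratios were -0.61, -0.34, -0.45 and -0.52 in the mice and -0.10 in the pool, and without the swapped array it was -0.48 and passed (0.00127). Where the standard errors were enlarged for a spread among the control mice, Pcx did not pass (0.0657). Mdh2, the mitochondrial malate dehydrogenase, fell by 0.31 ± 0.07 (adjusted p 0.0171), but its ratios were -0.21, 0.07, 0.02 and -0.12 in the mice and -0.57 in the pool, and without the swapped array the change was -0.06 and did not pass (adjusted p 0.488). Slc25a12, a mitochondrial aspartate-glutamate carrier, rose by 0.21 ± 0.06 (adjusted p 0.0309); without mouse 2, 3 or 4 this did not pass, at 0.21, 0.20 and 0.22. Aspa, which splits N-acetylaspartate, fell by 0.35 ± 0.09 (adjusted p 0.0311), and without mouse 3 its -0.34 did not pass; the call ended under 5 of the 15 alternatives.

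Asl and Ass1 are the urea cycle enzymes that split and make argininosuccinate, the latter from citrulline and aspartate. Asl rose by 0.21 ± 0.06 (adjusted p 0.0479), a call that ended under 10 of the 15 alternatives, among them leaving out mouse 2 (0.19), mouse 3 (0.19), mouse 4 (0.22) or the swapped array (0.08). Ass1 had ratios of 0.29, 0.63, 0.70 and 0.36 in the mice and -0.39 in the pool, and its change of 0.05 ± 0.09 did not pass (adjusted p 0.701). Without the swapped array Ass1 was 0.50 and passed (adjusted p 0.00356). The synthetases that charge tRNA with asparagine and aspartate in the cytosol, Nars and Dars, had changes of 0.00 ± 0.06 (adjusted p 0.973) and 0.00 ± 0.08 (0.978). The Nars value averages ratios of -0.10, -0.30, -0.23 and -0.19 in the mice with 0.21 in the pool. Nars2, its mitochondrial counterpart, had 0.17 ± 0.06 (adjusted p 0.0583).

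Of 34 listed genes that use glutamine or glutamate, 28 were tested. Of these, 3 rose, 5 fell and 20 did not pass (28.6% called, against 30.5% of all named genes), with a median of 0.00. Ctps2, a CTP synthase, which takes the amide nitrogen of glutamine, had ratios of 1.12, 1.14, 1.22, 1.10 and 0.83 and rose by 0.99 ± 0.05 (adjusted p 7.01e-05). Its second probe had a change of 0.52. The isozyme Ctps, with ratios of -0.17, -0.73, -0.48, -0.51 and -0.43, fell by 0.45 ± 0.10 (adjusted p 0.0166), a call that ended under 3 of the 15 alternatives. Nags, which makes the N-acetylglutamate that the urea cycle needs, rose by 0.50 ± 0.07 (adjusted p 0.00278), with ratios of 0.17, 0.21, 0.33 and 0.04 in the mice and 0.81 in the pool. Without the swapped array Nags was 0.19 (adjusted p 0.0459), and with no dye term its 0.31 did not pass (0.0557). Aldh4a1, which forms glutamate from proline, rose by 0.27 ± 0.06 (adjusted p 0.0154), and did not pass with the enlarged standard errors (0.0557).

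Oat, the ornithine aminotransferase, which lies with Glul in pericentral hepatocytes, had ratios of -1.08, -0.60, -0.69 and -1.40 in mice 1 to 4 and -0.79 in the pool. It fell by 0.87 ± 0.14 (adjusted p 0.00639), most in mice 1 and 4. Gclc, the catalytic subunit of the enzyme that joins glutamate to cysteine for glutathione, fell by 0.79 ± 0.12 (adjusted p 0.00421).

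The other aminotransferases were tested next. Of 12 listed, 8 were tested. Of these, 0 rose, 3 fell and 5 did not pass (37.5% called, against 30.5% of all named genes), with a median of -0.13. Without adjustment limma gave 1 higher and 4 lower at p under 0.05. The share of all named genes at that looser threshold is not given here, so nothing is read from the unadjusted counts. Kyat3, which transaminates kynurenine and glutamine, had ratios of -3.38, -2.67, -2.59 and -4.26 in mice 1 to 4 and -3.22 in the pool, with mouse 4 lowest. It fell by 3.22 ± 0.29 (adjusted p 0.000557), and the change of its second probe was -1.77. Its relative Kyat1 fell by 0.88 ± 0.09 (adjusted p 0.000995). Tat, the tyrosine aminotransferase, fell by 0.58 ± 0.18 (adjusted p 0.0488), with ratios of -0.75, -0.66, -0.13, 0.22 and -0.83; the call ended under 11 of the 15 alternatives, among them leaving out mouse 1 (-0.51), mouse 2 (-0.53), mouse 3 (-0.62) or the swapped array (-0.33).

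**Figure D3:**
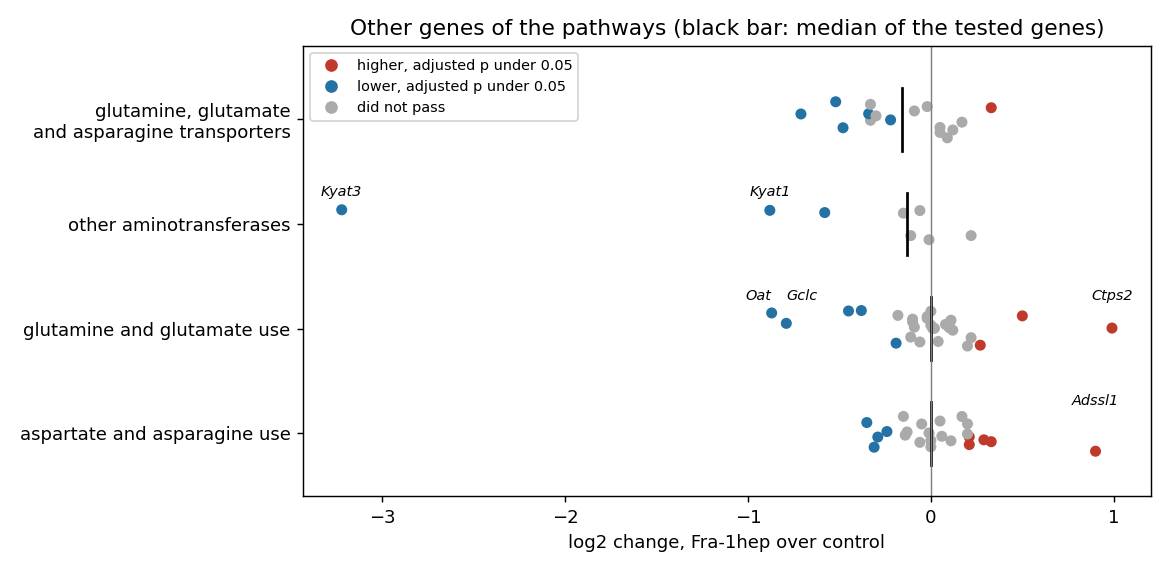
Log2 change of each tested gene in 4 lists around the 9 enzymes, coloured by direction where the adjusted p was under 0.05, with the median of each list as a bar. Medians lie between -0.15 and 0.00, and Kyat3 at -3.22 and Ctps2 at 0.99 are the extremes.

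Of 22 listed carriers of glutamine, glutamate and asparagine, 16 were tested. Of these, 1 rose, 5 fell and 10 did not pass (37.5% called, against 30.5% of all named genes), with a median of -0.15. Slc1a2, the glutamate carrier of pericentral hepatocytes, had ratios of -0.93, -0.33, -0.48, -0.49 and -0.87 and fell by 0.71 ± 0.11 (adjusted p 0.0044); its other 2 probes had changes of -0.31 and -0.26. Slc1a5, a glutamine and neutral amino acid exchanger, fell by 0.52 ± 0.09 (adjusted p 0.00693), and its second probe had a change of -0.20. Slc38a2 and Slc38a4, which take up small neutral amino acids, fell by 0.48 ± 0.12 (adjusted p 0.0234) and 0.34 ± 0.07 (0.0122); the Slc38a2 call ended under 4 of the 15 alternatives, and without the swapped array Slc38a4 was -0.14 and did not pass. Slc38a3, the glutamine and asparagine carrier of hepatocytes, had 0.09 ± 0.05 and did not pass, with ratios of -0.20, -0.07, -0.16 and -0.13 in the mice and 0.33 in the pool. Slc1a4, a carrier of alanine, serine and cysteine, rose by 0.33 ± 0.08 (adjusted p 0.0232), but its ratios of 1.11, 0.90, 0.90 and 1.23 in the mice met one of -0.38 in the pool. Without the swapped array Slc1a4 was 1.04 (adjusted p 0.000113), and its call ended under 3 of the 15 alternatives.

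Asns is one of many genes that ATF4 is known to drive. Because no other named gene tested rose as much as Asns, none of these could share its ratio. Their changes are therefore given as a description. Of 52 further genes of the ATF4 and amino acid response, 45 were tested. Of these, 4 rose, 10 fell and 31 did not pass (31.1% called, against 30.5% of all named genes). Nothing is read from a share so near that of all named genes. The changes of the 45 ran from -2.10 to 0.99, with a median of -0.11. Gdf15, a stress hormone, fell by 2.10 ± 0.16 (adjusted p 0.000299), Nupr1, a stress-induced chromatin protein, by 1.31 ± 0.09 (0.000149) and Atf3, an ATF-family repressor, by 1.01 ± 0.06 (0.000117). Cebpd fell by 0.84 ± 0.16 (adjusted p 0.0118), and Slc7a1, a carrier of cationic amino acids, by 0.44 ± 0.06 (0.00346). Cth, which makes cysteine from cystathionine, fell by 0.36 ± 0.06 (adjusted p 0.00718). The clearest rises were those of Vldlr, a lipoprotein receptor, by 0.99 ± 0.06 (adjusted p 0.000129), and Shmt2, the mitochondrial serine hydroxymethyltransferase, by 0.47 ± 0.05 (0.00149), with a mean of 0.31 in the mice and 0.64 in the pool.

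Atf4 itself had ratios of 0.71, 0.28, 0.68 and 0.08 in mice 1 to 4 and 0.02 in the pool. Its change of 0.23 ± 0.12 did not pass (adjusted p 0.217). Over the 4 mice without the swapped array Atf4 was 0.44 and passed (adjusted p 0.0211), as it did at 0.35 with no dye term (0.0479). Ddit3, a stress factor downstream of ATF4, had -0.11 ± 0.08 (adjusted p 0.344). Trib3, a pseudokinase that ATF4 induces, had -0.29 ± 0.15 (0.205), and without mouse 2 its -0.37 passed (0.0424). Fgf21, a hepatic hormone under ATF4, had 0.56 ± 0.18 (adjusted p 0.0535). Chac1, Psat1 and Phgdh, which act in glutathione breakdown and serine synthesis, had 0.10 ± 0.13, -0.15 ± 0.06 and 0.09 ± 0.07 and did not pass.

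**Figure D4:**
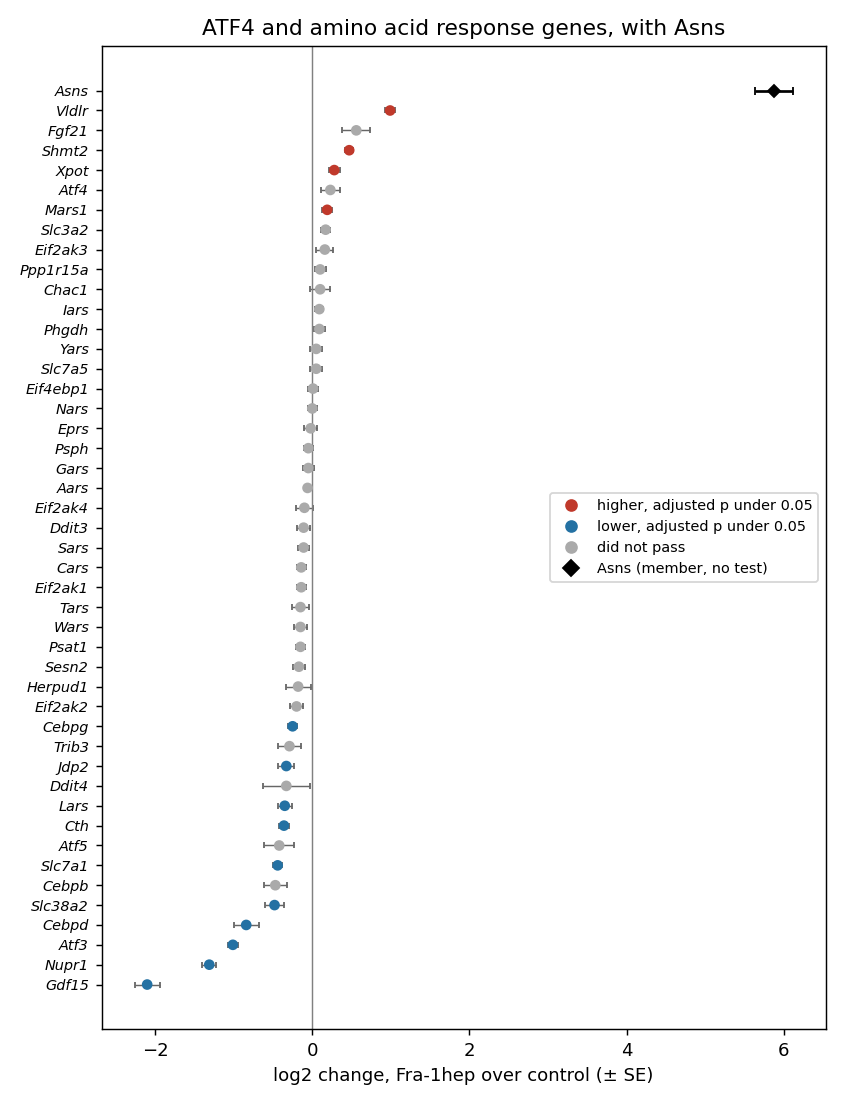
Log2 change ± SE of the 45 tested genes of the ATF4 and amino acid response, with Asns above them. Asns stands at 5.87, and the 45 others lie between -2.10 and 0.99 on both sides of 0.

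The core of the C/EBP-ATF element, TGATGNAA, which TGATGAAAC contains, was searched in the promoters as well, a motif added after the Asns promoter and the values had been seen. On both strands it stood in 1304 of 32851 windows (3.97%), in 2 of the 7 enzymes, and in 16 of 51 windows of the ATF4 list (31.4%). The element and its flanks are printed for Asns, for Got1, the other enzyme that holds it, and for the genes of the list that hold it and passed the threshold in either direction. They read 5′ to 3′ on the strand that carries the motif, or its reverse complement where the match was on the other strand, with the element in capitals and build GRCm38.p6.
Asns, chr6:7693215-7693242, minus strand: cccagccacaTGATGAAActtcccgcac
Got1, chr19:43524690-43524717, plus strand: gaggcttgtaTGATGCAAccaatgcaat
Vldlr, chr19:27216810-27216837, minus strand: ctaggagcgcTGATGCAActattgctgc
Atf3, chr1:191183426-191183453, plus strand: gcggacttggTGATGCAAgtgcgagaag
Nupr1, chr7:126625563-126625590, plus strand: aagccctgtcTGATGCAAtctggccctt
Jdp2, chr12:85599373-85599400, plus strand: tagccggggcTGATGCAAcccgtcccgc
These genes share the letters and not the direction. Of the 16 genes of the list with the element, 13 were tested; Vldlr rose, Atf3, Nupr1 and Jdp2 fell, and 9 did not pass, with a median of -0.06. Jdp2, an AP-1 repressor, fell by 0.33 ± 0.10 (adjusted p 0.046), and did not pass without mouse 1 (-0.29), mouse 2 (-0.33), mouse 3 (-0.31) or the swapped array (-0.17). Windows were at hand for 43 of the 52 genes of the list, so these counts do not cover all of its tested genes. Among the 24 tested genes with a window but without the element, 3 rose and 4 fell, with a median of -0.11. Over all named genes with TGATGAAAC in the window, 22 were tested, Asns among them, and 3 passed as higher and 7 as lower. With TGATGNAA in the window 328 named genes were tested, and 36 passed as higher and 73 as lower. Without it 10474 were tested, and 1253 passed as higher and 1897 as lower. Of all named genes tested, 12.0% passed as higher and 18.5% as lower, and nothing about the element is read from these counts.

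Glul marks the hepatocytes at the central vein, and its ratio was set beside other pericentral genes. Of 27 listed, 24 were tested. Of these, 5 rose, 6 fell and 13 did not pass (45.8% called, against 30.5% of all named genes), with a median of 0.05. Oat and Slc1a2, which share the last rim of hepatocytes with Glul, fell as given above, and Rhbg, the ammonium channel of the same cells, had 0.02 ± 0.09 (adjusted p 0.87). Sult5a1 fell by 0.95 ± 0.07 (adjusted p 0.000236). Slc13a3, a dicarboxylate carrier, fell by 0.54 ± 0.07 (0.00245) and Nkd1, a WNT target, by 0.53 ± 0.09 (0.00596). Avpr1a, a vasopressin receptor, rose by 1.48 ± 0.08 (adjusted p 5.67e-05), Cyp2c29, whose signal may be shared with its near relatives, by 1.09 ± 0.07 (0.000108), and Cyp7a1, the rate-limiting enzyme of bile acid synthesis, by 0.98 ± 0.24 (0.0237); without mouse 3 Cyp7a1 was 0.96 and did not pass (0.0502). Cyp2e1 and Cyp1a2, pericentral P450 enzymes, did not pass, at 0.25 ± 0.11 (adjusted p 0.134) and 0.08 ± 0.12. The Cyp2e1 value averages ratios of 1.03, 0.81, 0.49 and 1.09 in the mice with -0.34 in the pool. Lgr5, a WNT target, did not pass either, at 0.10 ± 0.10.

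Gls2 and the urea cycle lie at the other end, in periportal hepatocytes. Of 27 listed periportal genes, all were tested. Of these, 8 rose, 10 fell and 9 did not pass (66.7% called, against 30.5% of all named genes), with a median of -0.01. Hsd17b6, a steroid dehydrogenase, fell by 3.69 ± 0.13 (adjusted p 1.74e-05) and Etnppl, a phospholyase, by 1.78 ± 0.10 (7.31e-05). Otc, which makes citrulline, fell by 0.50 ± 0.07 (adjusted p 0.00296), and Cps1, which uses the ammonia that Gls2 and Glud1 release, had 0.01 ± 0.06 (0.901). Sdsl, a serine dehydratase-like enzyme, rose by 0.84 ± 0.07 (adjusted p 0.000331) and Cdh1, E-cadherin, by 0.88 ± 0.10 (0.00158). Both zones thus held genes that rose and genes that fell.

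**Figure D5:**
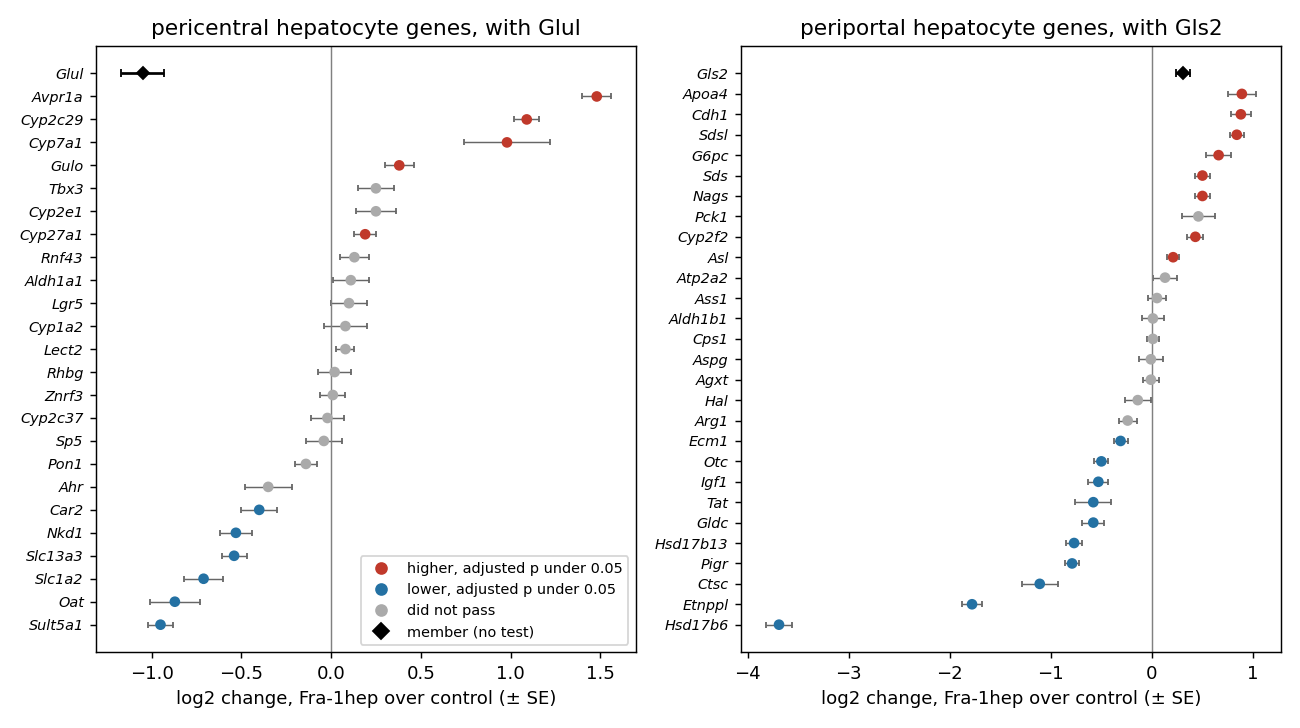
Log2 change ± SE of pericentral genes with Glul (left) and periportal genes with Gls2 (right), coloured by direction where the adjusted p was under 0.05. Both lists spread over both sides of 0: 5 rose and 6 fell on the left, 8 rose and 10 fell on the right.

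Markers of other liver cells moved alongside the enzymes, and their part in the enzyme ratios was not tested. Of 17 tested macrophage genes 11 fell, with summed signals of 40571 to 74899 in Fra-1hep and 75252 to 89559 in control. Of 15 stellate cell genes 12 fell, at 33615 to 36885 against 55810 to 69222, and of 15 endothelial genes 8 fell and 1 rose, at 20728 to 27033 against 27959 to 29974. Of 13 neutrophil genes 9 rose and 1 fell, at 47934 to 85083 against 36517 to 42359. Among all named genes 12.0% passed as higher and 18.5% as lower. The control sums come from 1 pool read on 5 arrays, so their ranges leave out the spread between control mice. Of 11 lymphocyte genes 5 fell, of 11 cholangiocyte genes 1 rose, and of 7 intestinal genes 4 rose and 1 fell. Their sums were 5957 to 9033 against 6073 to 9639, 4605 to 7632 against 5389 to 6098, and 41583 to 51922 against 57059 to 59250. Of 18 hepatocyte genes 5 rose and 2 fell. Mmp8 and Mmp9, among the neutrophil rises, cleared the background in Fra-1hep on 5 and 4 arrays and in control on 0. Krt20 and Vil1, among the intestinal rises, cleared it in Fra-1hep on 5 arrays each and in control on 1 and 2. Gpnmb, among the macrophage falls, cleared it in Fra-1hep on 1 and in control on 5. These genes entered the counts only through the group where they were high.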

How the data were processed

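Liver RNA with an integrity score above 7.8, 100 ng per labelling per the labels' protocols, was hybridised to 5 arrays. The authors' scanner files hold spot intensities, for which the submitters' processing notes name Agilent Feature Extraction 10.7 and the headers its release 10.7.3.1. Per the file headers they also hold the log10 ratio of red to green, and flags for background and uniformity, scored 0 or 1. The deposited series table holds log2 ratios: against the scanner ratios of 23066 probes its slope was 1 in each mouse and -1 on the swapped array, so that all of its columns read Fra-1hep over control. Column medians were 0.13, 0.08, 0.04 and 0.13 for the mice and -0.04 for the pool, so no centring had been done; the sources used here give no further step.

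Background was removed from the median signals by normexp (offset 50), followed by loess within arrays, with control and outlier spots at weight 0. Of 62976 spots per array, 177 outlier spots in all were left out and 0 were saturated. Spots of 1 probe were averaged. Of 55681 probes, 26056 were named through their unversioned accession in a RefSeq table (GRCm38.p6), giving 19752 genes, and 29625 kept their accession. Kept were 28105 probes that cleared the background, in 1 channel or the other, on 3 arrays or more, and the brightest stood for its gene, which left 21494 features, 13524 of them named. limma 3.58.1 in R 4.3.3 fitted the Fra-1hep effect and a dye term to the 5 arrays (3 residual degrees of freedom), with Benjamini-Hochberg adjustment at 0.05. The script was tested on simulated data. The control pool counts as 1 control sample, so p-values leave out the spread between control mice. The number of arrays limits the precision, and the median SE was 0.0666 on the log2 scale. Levels per channel were taken after loess and Aquantile scaling; marker sums are linear.

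The 9 enzymes, 7 pathway lists and 9 marker lists were chosen with earlier results of these data known. Named were all 9 enzymes, and from each pathway list up to 8 genes past the threshold with the smallest p. Also named were Atf4, Ddit3, Trib3, Ass1, Slc1a2, Rhbg and Oat. Others were the neighbours of Asns, the 5 genes nearest to it by the distance of their ratios, and up to 4 genes per marker list. The tRNA synthetases, Asl, Aspg, Slc38a3, Fgf21, Chac1, Psat1, Phgdh, Jdp2, Cps1, Cyp1a2, Cyp2e1, Cyp7a1 and Lgr5 were picked for their role after values were seen. Altogether 15 alternative settings were run. Some listed genes are not reported here.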

Additional observations from a re-analysis of the deposited data

Results flagged for a closer look

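In 7 of 98 results, the 9 enzymes and the genes named by rule, 1 of the 4 mice lay far from the other 3 by Dixon's criterion, which chance alone meets in about 1 in 20. Among the enzymes these were Gpt, with a log2 ratio of 0.02 in mouse 1 against -0.25 to -0.23 in the others, and Glud1, with 0.07 in mouse 2 against 0.22 to 0.25. Among other genes, mouse 2 stood apart for Hsd17b13 (-0.48 against -0.80 to -0.78), for the macrophage marker Itgax (-0.95 against -1.48 to -1.44) and for the neutrophil marker S100a8 (3.68 against 2.01 to 2.27). Mouse 4 stood apart for the fibrinogen gene Fgb (2.51 against 2.66 to 2.69) and mouse 1 for the stellate cell marker Dcn (-0.84 against -1.25 to -1.22).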

How the results depend on the processing

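The change of Asns and that of Glul kept their direction under the 15 alternatives. The balance of aspartate and asparagine genes, 5 higher and 4 lower, turned to 2 and 4 without mouse 2 or mouse 4. With processed signals, and with the deposited ratios, the change of Asns was 6.86. There 2 of the 9 enzymes passed (Asns and Glul), and 5 genes of aspartate and asparagine use passed. Counts of the 9 enzymes, here and below, are a description only, because the ratio of Asns chose the list. With the standard errors enlarged for a spread among 5 control mice, 2846 features passed, with 2 genes of aspartate and asparagine use, 4 of glutamine and glutamate use, 3 transporters and 8 of the ATF4 response. Leaving out each mouse in turn gave 5.75 to 5.97 for Asns, 4281 to 5488 features and the same 4 enzymes. It gave 6 to 8 genes of aspartate and asparagine use, 7 to 8 of glutamine and glutamate use, 2 to 3 other aminotransferases, 5 to 8 transporters, 11 to 15 of the ATF4 response, 9 to 11 pericentral and 16 to 18 periportal genes. Without mouse 1, the value is also that within the slide of the other 4 arrays. Without the swapped array 7716 features passed. Of 1333 values of 89 further named genes under the alternatives, 1248 kept their call and direction, 79 lost the call and 6 gained it. Asrgl1 was 0.83 with no offset and 1.52 with processed signals, and fell out under a filter on both channels. The signal over background of the control limits the size of the Asns and Asrgl1 ratios. Each ratio compares the 2 channels of 1 array, so the comparison was made within arrays. Single Fra-1hep mice could not be paired with single control mice, because the control is 1 pool.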
